A study of Bos taurus with 6 samples.

Results

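The genes described here encode the machinery that carries pyruvate into the mitochondrion, turns it into acetyl-CoA and oxidises acetyl-CoA in the tricarboxylic acid cycle, with the enzymes that exchange carbon with the cycle. The members were a fixed list of 36 gene symbols looked up in a table of counts per gene. Of these, 34 were found among its 12826 genes, and OGDHL and PDK4 are not analysed here. The counts come from RNA-seq of pooled bovine (Bos taurus) blastocysts at day 7, produced in vitro from slaughterhouse material. The 3 BHB libraries came from embryos given the ketone body beta-hydroxybutyrate (BHB), and the 3 control libraries from embryos produced in the same way without it. How much BHB was used, how long the embryos met it and how many were pooled is not given here. The labels do not say whether the pools came from different batches, so the p-values speak for the spread among these 6 libraries.

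Pyruvate crosses the inner mitochondrial membrane through the carrier formed by MPC1 and MPC2, and the pyruvate dehydrogenase complex then converts it into acetyl-CoA. Kinases (PDK) switch the complex off by phosphorylation and phosphatases (PDP) switch it on again. BHB reaches the cycle by another route: it is oxidised to acetoacetate, activated at the expense of succinyl-CoA, and split into acetyl-CoA, which citrate synthase takes up. The cycle feeds the respiratory chain and gives citrate, oxoglutarate and malate to biosynthesis, and preimplantation embryos depend on pyruvate as a fuel from the first cleavages onward.

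No member passed the test between BHB and control blastocysts, and the differences were small. Of the 34 members, 26 had a log2 fold change (BHB over control) below 0, with a median of -0.10, against 50.9% of the 12732 tested genes and a median of -0.005 over them. The steps from citrate to oxoglutarate and from fumarate to oxaloacetate were below 0 in every member measured (7 of 7 and 3 of 3), as were both pyruvate carrier subunits and the 5 subunits of pyruvate dehydrogenase, although IDH3A, MPC1 and PDHB were above 0 when libraries were scaled by total counts alone. Leaving out control library 1 turned MPC1, PDHA1, CS, IDH3B and IDH3G above 0, and leaving out control library 2 turned DLAT and IDH3A. With all libraries, the kinases and phosphatases of pyruvate dehydrogenase went the other way from these steps, with 4 of 5 above 0 and a median of 0.17. The values of single members ran from -0.44 in ACO1 to 0.39 in PDK3.

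In edgeR's quasi-likelihood test with Benjamini-Hochberg adjustment over all tested genes, 0 of 34 members were called, as were 0% of all tested genes. Each member had an adjusted p of 0.999. At an unadjusted p under 0.05 the test had 1 member, PDK3 (2.94% of members, against 2.73% of tested genes). DESeq2's Wald test also called 0 members, with 6 calls over all genes, and limma called 0 genes. The median of the members was below 0 under each alternative run for it, but its size depended on scaling and on single libraries. Scaled by total counts alone, 19 of 34 members were below 0 (55.9%, against 39.3% of all tested genes), the median of members was then -0.03 and that of all genes 0.06, and 25 of 34 members lay below the median of all genes under both scalings. Scaled as before, the median was -0.02 without control library 1, -0.17 without control library 3, -0.15 without BHB library 1 and -0.06 without BHB library 3.

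Libraries were also compared within 3 pairs, control 1 with BHB 1 and so on, since the authors' deposited p-values are refitted only by a model with these pairs. Differences between pairs then no longer count as spread. Within pairs 0 members passed (0% of all tested genes; smallest adjusted p among members = 0.449, in ACO1), and DESeq2 called 33 genes within pairs, 0 of them members. At an unadjusted p under 0.05 there were 3 members, ACO1, FH and PDK3 (8.82%, against 8.2% of tested genes). The share is near that of all genes. BHB was lower in 3 of 3 pairs in 11 members (32.4%, against 15.7% of tested genes) and higher in 3 of 3 pairs in 4 members (11.8%, against 14.5%). Per pair, 20, 22 and 20 of the 34 members were lower in the BHB library (58.8%, 64.7% and 58.8%). Of all tested genes, 49.6%, 49.5% and 51.2% were.

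Groups that do not overlap were found in 5 members, each with the 3 BHB libraries below the 3 controls: MPC2, PDHB, IDH1, SUCLG2 and MDH2 (14.7% of members, against 3.78% of tested genes). In the other direction there were 0 members, against 4.06% of tested genes. Scaled by total counts alone, 2 of the 5 kept groups that do not overlap, IDH1 and MDH2 (2.52% of all tested genes lower). Because these are pools of whole embryos, fewer cells of a type and less RNA per cell cannot be told apart.

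**Figure D1:**
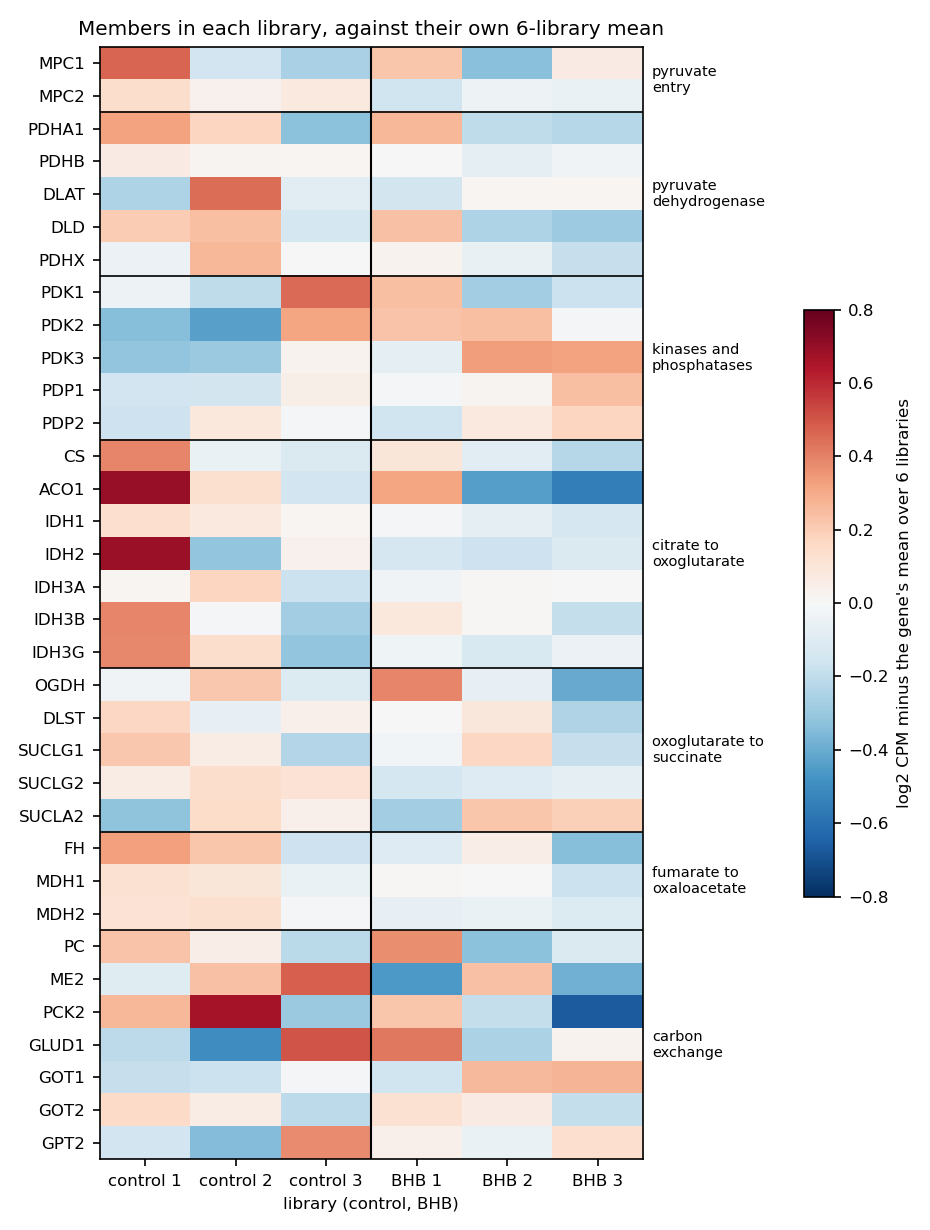
Log2 CPM (counts scaled to a common library size) of each of the 34 members (rows, grouped by step) in each of the 6 libraries (columns), minus the mean of that gene over the 6 libraries. Red is above the mean and blue below it; control library 1 stands high in ACO1, IDH2 and MPC1, and SUCLG2, IDH1, MDH2, MPC2 and PDHB are lower in the 3 BHB libraries than in the 3 controls.

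Pyruvate entry comes first. Levels are counts scaled to a common library size (CPM, with TMM factors), which compare a gene between libraries but not with another gene. MPC1 was at 549.9, 358 and 333 CPM in control libraries 1 to 3 and at 465, 316 and 417 CPM in BHB libraries 1 to 3. The groups overlapped widely, and control 1 was the highest library. The log2 fold change was -0.05 (SE 0.22), with a 95% confidence interval from -0.54 to 0.44. MPC2 was at 116, 108 and 111 CPM in the controls and, under BHB, 94.3, 102 and 101 CPM. Its 3 BHB libraries lay below the 3 controls, but the difference was small (111 ± 4.24 CPM against 99.3 ± 4.33 CPM, SD, n = 3 each; log2 fold change -0.17, SE 0.12, interval -0.44 to 0.11).

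In the pyruvate dehydrogenase complex, PDHA1 and PDHB encode the subunits of the first enzyme, which removes carbon dioxide from pyruvate. PDHA1, whose product carries the phosphorylation sites, was at 452, 408 and 288 CPM in the controls and, under BHB, 436, 314 and 309 CPM. The spread within each group was larger than the difference between them, with library 1 the highest of both groups (log2 fold change -0.12, SE 0.20, interval -0.57 to 0.33). PDHB was steady, at 539, 522 and 519 CPM in the controls and, under BHB, 516, 490.3 and 504 CPM. The BHB libraries were all lower, by little (log2 fold change -0.07, SE 0.11, interval -0.32 to 0.19).

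DLAT encodes the acetyltransferase core of the complex. It was at 78.0, 126 and 87.5 CPM in the controls and, under BHB, 83.5, 93.5 and 93.7 CPM, so control 2 alone was high (log2 fold change -0.11, SE 0.19). PDHX, which anchors the third enzyme to that core, was at 127, 158 and 131 CPM in the controls and, under BHB, 134, 126 and 115 CPM. Control 2 was again the highest library (log2 fold change -0.15, SE 0.14). DLD encodes the third enzyme, dihydrolipoamide dehydrogenase, which the oxoglutarate and branched-chain keto acid complexes also use. It was at 823, 847 and 648 CPM in the controls and, under BHB, 842, 605 and 586 CPM, and the groups overlapped because BHB 1 was as high as controls 1 and 2 (log2 fold change -0.19, SE 0.18, interval -0.59 to 0.21). In pair 2 the 5 genes of the complex were all lower with BHB, by 0.09 (PDHB) to 0.49 (DLD) on the log2 scale. The other pairs had no common direction. In pair 1 PDHA1 and PDHB were lower and the other 3 higher. In pair 3 PDHA1 and DLAT were higher (0.10 each), and PDHB, DLD and PDHX were lower.

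Of the genes that regulate the complex, the kinase gene PDK3 had the highest fold change of any member. It was at 52.2, 52.8 and 66.2 CPM in the controls and, under BHB, 61.7, 81.8 and 81.3 CPM. BHB 2 and 3 lay above the controls, and BHB 1 lay below control 3, so the groups overlapped. The log2 fold change was 0.39 (SE 0.17, interval 0.01 to 0.78), with an unadjusted p of 0.0476 in edgeR and an adjusted p = 0.999. Within pairs it was 0.39 (SE 0.13), higher with BHB in 3 of 3 pairs by 0.24, 0.63 and 0.29, with an adjusted p = 0.51. Without pairing it lay between 0.33 and 0.51 when any 1 library was left out.

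The other kinase genes had wider intervals. PDK1 was at 29.7, 26.5 and 41.7 CPM in the controls and, under BHB, 36.0, 25.2 and 27.1 CPM, with opposite differences in pairs 1 and 3 (0.28 and -0.61 on the log2 scale). PDK2 was at 4.54, 4.24 and 7.16 CPM in the controls and, under BHB, 6.74, 6.79 and 5.69 CPM, and its 32 to 61 counts per library leave a wide interval (log2 fold change 0.27, interval -0.45 to 0.98).

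The phosphatase gene PDP1 was at 31.0, 31.2 and 35.6 CPM in the controls and, under BHB, 34.2, 34.9 and 40.7 CPM, higher in 3 of 3 pairs by 0.14 to 0.19 (log2 fold change 0.17, SE 0.16, interval -0.20 to 0.54). PDP2, the other phosphatase gene, was at 136, 161 and 151 CPM in the controls and, under BHB, 136, 161 and 172 CPM. Pairs 1 and 2 were level (log2 fold change 0.06, SE 0.14).

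**Figure D2:**
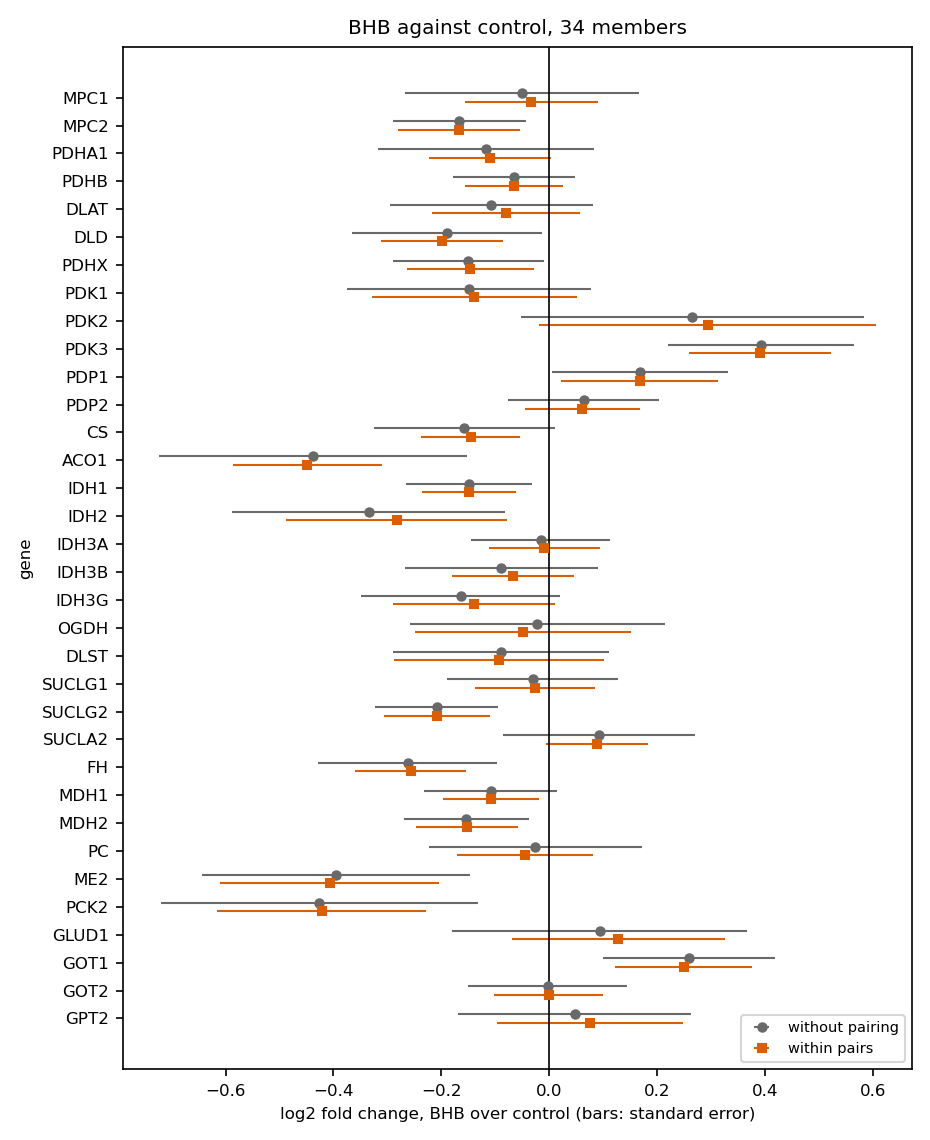
Log2 fold change of BHB over control (x axis) for each of the 34 members (y axis), with the standard error as bars. Grey circles are the fit without pairing and orange squares the fit within pairs; most members sit a little left of 0, PDK3 lies farthest right at 0.39 and ACO1 farthest left at -0.44, and none passed the adjusted test.

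On the way from citrate to oxoglutarate, CS encodes citrate synthase, which joins acetyl-CoA from pyruvate, fatty acids or BHB to oxaloacetate. It was at 1747, 1282 and 1228 CPM in the controls and, under BHB, 1427, 1252 and 1138 CPM. Library 1 was the highest of each group and the groups overlapped (log2 fold change -0.16, SE 0.17, interval -0.53 to 0.22); without control library 1 the value was 0.02.

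ACO1 encodes the cytosolic aconitase, which also acts as an RNA-binding regulator of iron genes. It was at 68.4, 46.1 and 37.8 CPM in the controls and, under BHB, 52.5, 31.0 and 28.7 CPM. The groups overlapped, but in each pair the BHB library was lower, by 0.38, 0.57 and 0.39 on the log2 scale. Without pairing the log2 fold change was -0.44 (SE 0.29, interval -1.08 to 0.20), and within pairs it was -0.45 (SE 0.14, interval -0.75 to -0.14), with an unadjusted p of 0.00841 in edgeR and an adjusted p = 0.449. Without pairing it was -0.16 when control library 1 was left out and -0.76 when BHB library 1 was.

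IDH1 encodes the cytosolic and peroxisomal NADP-dependent isocitrate dehydrogenase, a source of NADPH. It was at 1069, 1028 and 984 CPM in the controls and, under BHB, 963, 928 and 888 CPM. The groups did not overlap, and the difference was -0.15 on the log2 scale in each of the 3 pairs (SE 0.12 without pairing, interval -0.41 to 0.11; SE 0.09 within pairs, adjusted p = 0.696). IDH2, the mitochondrial NADP-dependent counterpart, was at 40.3, 20.02 and 25.6 CPM in the controls and, under BHB, 22.8, 22.3 and 23.1 CPM. Its log2 fold change of -0.33 (SE 0.25) rested on control library 1 and was -0.01 without it.

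The NAD-dependent isocitrate dehydrogenase of the cycle itself is built from the products of IDH3A, IDH3B and IDH3G. IDH3A, the catalytic subunit, was at 426, 475 and 375 CPM in the controls and, under BHB, 415, 424 and 424 CPM. The groups had nearly the same mean (426 ± 50.3 and 421 ± 5.42 CPM, SD, n = 3 each), and the interval of the log2 fold change ran from -0.31 to 0.27. The other subunit genes lay between 172 and 273 CPM (IDH3B) and between 56.9 and 92.4 CPM (IDH3G) over the 6 libraries, with control 1 the highest and control 3 the lowest in both. Their log2 fold changes were -0.09 (SE 0.18) and -0.16 (SE 0.18).

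On the way from oxoglutarate to succinate, OGDH encodes the first enzyme of the oxoglutarate dehydrogenase complex. It was at 19.5, 23.1 and 18.4 CPM in the controls and, under BHB, 26.0, 18.97 and 15.03 CPM. BHB 1 was the highest and BHB 3 the lowest of the 6 libraries, so no direction was measured (log2 fold change -0.02, SE 0.24, interval -0.55 to 0.51). DLST, the succinyltransferase core of that complex, ran from 13.4 to 17.8 CPM (log2 fold change -0.09, SE 0.20).

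Succinyl-CoA synthetase makes ATP or GTP depending on its beta subunit, and it draws on the same succinyl-CoA that activates ketone bodies. SUCLG2, the subunit of the GTP-forming enzyme, was at 238, 252 and 248 CPM in the controls and, under BHB, 208, 213 and 218 CPM. The groups did not overlap and each pair was lower, by 0.20, 0.24 and 0.19 on the log2 scale (246 ± 7.13 against 213 ± 4.92 CPM, SD, n = 3 each; log2 fold change -0.21, SE 0.11, interval -0.47 to 0.05; within pairs adjusted p = 0.63). SUCLA2, the subunit of the ATP-forming enzyme, was at 297, 411 and 381 CPM in the controls and, under BHB, 306, 432 and 424 CPM. Here library 1 was the lowest of both groups, and each pair was slightly higher with BHB (log2 fold change 0.09, SE 0.18, interval -0.31 to 0.49). SUCLG1, the alpha subunit that both forms share, ran from 163 to 223 CPM with overlapping groups (log2 fold change -0.03, SE 0.16).

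On the way from fumarate to oxaloacetate, FH encodes fumarase, which hydrates fumarate to malate. It was at 404, 375 and 286 CPM in the controls and, under BHB, 299.6, 334 and 254 CPM. The groups overlapped through control 3, and each pair was lower with BHB, by 0.43, 0.17 and 0.17 on the log2 scale. The log2 fold change was -0.26 without pairing (SE 0.17, interval -0.64 to 0.11) and -0.26 within pairs (SE 0.10, interval -0.48 to -0.03), with an unadjusted p of 0.031 in edgeR and an adjusted p = 0.564. Without pairing it was -0.16 when control library 1 or BHB library 3 was left out and -0.40 when control library 3 was.

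MDH2, the mitochondrial malate dehydrogenase that regenerates oxaloacetate, was at 440.4, 446 and 402 CPM in the controls and, under BHB, 389, 392 and 378 CPM. The groups did not overlap (log2 fold change -0.15, SE 0.12, interval -0.41 to 0.11). MDH1, its cytosolic counterpart in the malate-aspartate shuttle, was at 808, 790.4 and 713 CPM in the controls and, under BHB, 744, 741 and 658 CPM. It was lower in 3 of 3 pairs by 0.09 to 0.12, with groups that overlapped (log2 fold change -0.11, SE 0.12, interval -0.39 to 0.17). FH, MDH1 and MDH2 were each lower in 3 of 3 pairs, and none passed.

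**Figure D3:**
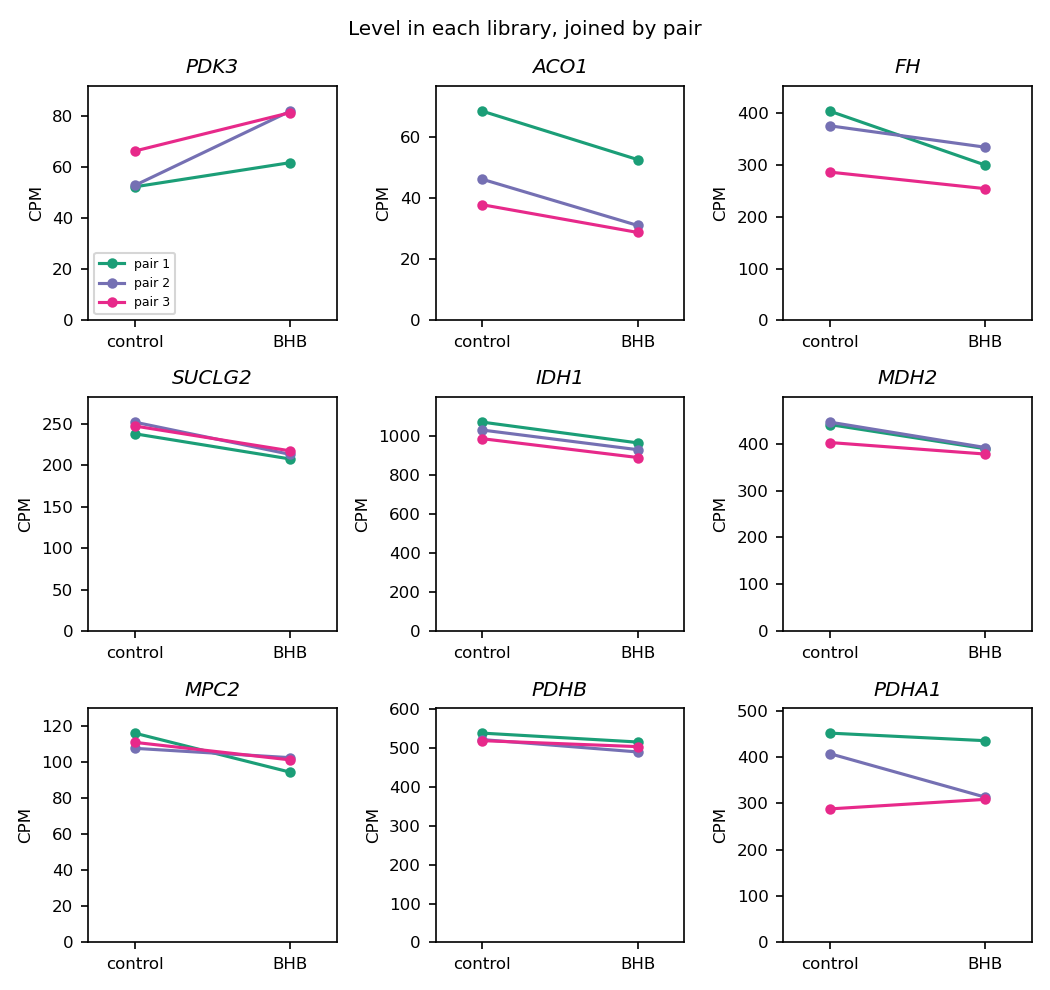
Level in CPM (y axis, from 0) of 9 members in the control and BHB libraries (x axis), with lines joining the 2 libraries of a pair. In PDK3 the 3 lines go up, in the 7 panels from ACO1 to PDHB they go down, and in PDHA1 pairs 1 and 2 go down and pair 3 goes up; in ACO1 pair 1 lies above the other pairs in both groups.

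Among the genes of carbon exchange, PC encodes pyruvate carboxylase, which refills oxaloacetate. It was at 207, 184 and 153 CPM in the controls and, under BHB, 229.7, 141 and 164 CPM, without a common direction (log2 fold change -0.03, SE 0.20, interval -0.47 to 0.42). ME2, the mitochondrial malic enzyme, and PCK2, the mitochondrial phosphoenolpyruvate carboxykinase, both draw carbon out of the cycle. They had the lowest log2 fold changes after ACO1, at -0.40 (SE 0.25) and -0.43 (SE 0.29). ME2 ran from 19.1 to 28.4 CPM in controls and from 14.8 to 24.0 CPM with BHB, and pair 3 differed by -0.85 while pair 2 was level. PCK2 ran from 18.8 to 36.6 CPM in controls and from 14.6 to 26.9 CPM with BHB, and here pair 2 differed by -0.85 and pair 1 by -0.04. Leaving out 1 library moved ME2 to between -0.65 (BHB 2) and -0.25 (control 3), and PCK2 to between -0.67 (BHB 1) and -0.17 (control 2). Within pairs the adjusted p = 0.665 for ME2 and 0.612 for PCK2.

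The aminotransferases and glutamate dehydrogenase link the cycle to amino acids. GOT1, the cytosolic aspartate aminotransferase, was at 68.5 ± 4.56 CPM in the controls and, under BHB, 82.0 ± 13.2 CPM (SD, n = 3 each; log2 fold change 0.26, SE 0.16), higher in 3 of 3 pairs by 0.03, 0.42 and 0.29. GOT2, its mitochondrial partner, had almost the same mean in both groups (195 ± 24.6 and 194 ± 21.7 CPM, SD, n = 3 each). GPT2, the mitochondrial alanine aminotransferase, had a log2 fold change of 0.05 (SE 0.22). GLUD1, which releases ammonium from glutamate to give oxoglutarate, had one of 0.09 (SE 0.27), with pairs 1 and 3 in opposite directions (0.63 and -0.48).

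Ratios of 2 members in the same library do not depend on how libraries are scaled. For 9 such ratios of isoforms or subunits, an exact two-sided permutation test over the 6 libraries was made, which cannot go below p = 0.10 with 3 against 3, and none reached that (exact p from 0.3 to 1, adjusted p from 0.9 to 1). This test leaves the pairs out. An exact two-sided sign-flip test over the 3 pairs, added after seeing the data, cannot go below p = 0.25, and 3 ratios were at that value: SUCLA2 over SUCLG2, GOT1 over GOT2 and PDP1 over PDP2 (adjusted p = 0.75). SUCLA2 over SUCLG2 was 1.25, 1.63 and 1.54 in controls and 1.47, 2.02 and 1.95 with BHB. It was higher with BHB in 3 of 3 pairs, by 0.24, 0.31 and 0.34 on the log2 scale, although BHB 1 lay below controls 2 and 3 (exact p = 0.3 without pairing). PDK3 over PDK1 was 1.76, 1.99 and 1.59 in controls and 1.72, 3.25 and 2.99 with BHB, so pairs 2 and 3 differed and pair 1 did not (exact p = 0.3).

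MDH1 over MDH2 was the steadiest ratio, at 1.83, 1.77 and 1.77 in controls and 1.91, 1.89 and 1.74 with BHB (exact p = 0.4). GOT1 over GOT2 was 0.304, 0.329 and 0.44 in controls and 0.316, 0.439 and 0.531 with BHB. It was higher with BHB in 3 of 3 pairs, with groups that overlapped (exact p = 0.5). IDH1 over IDH2 ran from 26.5 to 51.4 in controls and from 38.5 to 42.3 with BHB. PDHA1 over PDHB ran from 0.555 to 0.839 in controls and from 0.613 to 0.844 with BHB (difference in means -0.04 on the log2 scale). For MPC1 over MPC2, PDP1 over PDP2 and IDH3B over IDH3A the differences in means were 0.13, 0.11 and -0.06.

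**Figure D4:**
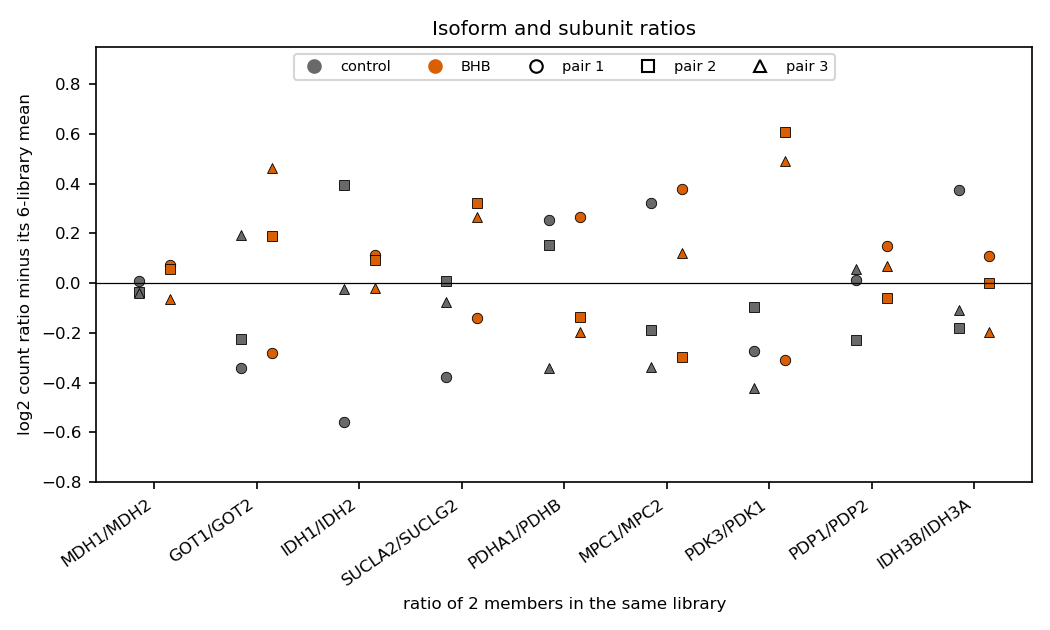
Log2 ratio of the counts of 2 members in the same library, minus the mean of that ratio over the 6 libraries (y axis), for 9 ratios (x axis). Grey is control, orange is BHB and the marker shape gives the pair; the groups overlap in each ratio, and MDH1 over MDH2 spreads least.

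Which members varied between pairs was asked with treatment in the model. In edgeR's quasi-likelihood test 1 of 34 members was called, ACO1 (2.94%, against 4.12% of all tested genes; adjusted p = 0.0338). Its mean over the 2 libraries of a pair was 60.5 CPM in pair 1, 38.6 CPM in pair 2 and 33.3 CPM in pair 3. The call was lost when libraries were scaled by total counts alone, and without pair 1 or pair 3. At an unadjusted p under 0.05 there were 10 members, 29.4% against 20.6% of tested genes. Pair 1 was the highest pair in MPC1 (508, 337 and 375 CPM in pairs 1 to 3), PDHA1 (444, 361 and 299 CPM), DLD (832, 726 and 617 CPM), CS (1587, 1267 and 1183 CPM), IDH3B (247, 209 and 177 CPM) and PC (219, 163 and 158 CPM). It was the lowest in SUCLA2 (301, 422 and 402 CPM), and in FH and PCK2 pair 3 was the lowest (270.1 and 16.7 CPM). DESeq2's likelihood ratio test of the pair term called 4 members, ACO1, MPC1, PDHA1 and SUCLA2 (11.8%, against 5.88% of the genes it tested).

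The authors' deposited table tests pair and treatment together, so a small p in it can come from either. It had 1 of the 34 members at an adjusted p under 0.05 (5.04% of all genes in that table). This was ACO1 (adjusted p = 0.00341 in the authors' deposited table). ACO1 was called between pairs in edgeR (adjusted p = 0.0338). It was also lower with BHB in 3 of 3 pairs, with the smallest treatment p of the members within pairs (unadjusted p of 0.00841 in edgeR, adjusted p = 0.449). Which of these the deposited p came from was not tested.

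Another 47 genes of the pathway were listed, of which 41 were tested, and edgeR called 0 of them. Of the 41, 28 were below 0 (68.3%, against 50.9% of tested genes), with a median of -0.08 against -0.005. Of the 6 mitochondrial carriers tested, 4 were above 0. Among the listed pathway genes with the smallest p on the lower side were BCKDK and SDHA. BCKDK, the kinase that switches off branched-chain keto acid dehydrogenase, was at 23.8, 32.3 and 23.4 CPM in the controls and, under BHB, 20.9, 22.6 and 16.9 CPM, with groups that did not overlap (log2 fold change -0.40, SE 0.21). SDHA, the flavoprotein of succinate dehydrogenase, was at 374, 407 and 293 CPM in the controls and, under BHB, 319.5, 325 and 255 CPM (log2 fold change -0.26, SE 0.16). Both were lower with BHB in 3 of 3 pairs, with edgeR adjusted p = 0.59 and 0.549 within pairs. On the higher side were SLC25A22, a mitochondrial glutamate carrier, LIPT2, which acts in making the lipoyl cofactor, and GLUL, glutamine synthetase. Their log2 fold changes were 0.54 (SE 0.30), 0.37 (SE 0.29) and 0.15 (SE 0.13). SLC25A22 was at 5.72 ± 1.48 CPM in the controls and 8.30 ± 1.499 CPM with BHB (SD, n = 3 each). Each of these genes was lower with BHB in 1 of 3 pairs: SLC25A22 in pair 2 (-0.07 on the log2 scale), LIPT2 in pair 3 (-0.20) and GLUL in pair 3 (-0.02).

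Totals ran from 6440732 to 8176648 counts per library, and the 34 members together took 0.916%, 0.854% and 0.84% of control counts and 0.892%, 0.817% and 0.837% of BHB counts. Their counts per library ran from 32 (PDK2) to 13080 (CS). Trophectoderm markers were present (6 of 6 in the table) with a summed level of 10465 to 17049 CPM in controls and 8237 to 13359 CPM with BHB, nearly all of it KRT8 and KRT18. The sum was lower with BHB in 3 of 3 pairs, as were KRT8 and KRT18 (log2 fold change within pairs -0.39 and -0.38, edgeR adjusted p = 0.209 and 0.263). TFAP2C and CDX2 were higher with BHB in 3 of 3 pairs, by 0.10 to 0.64 and by 0.09 to 0.51 on the log2 scale. GATA3 was lower with BHB in 1 of 3 pairs and GATA2 in 2 of 3. In both groups the trophectoderm sum was highest in pair 1 and lowest in pair 3. The same held for PDHA1, CS, ACO1, IDH1, IDH3B, MDH1 and GOT2, while SUCLA2 was lowest in pair 1 of both groups. In edgeR's test between pairs, IDH1, MDH1 and GOT2 had unadjusted p of 0.563, 0.247 and 0.0513. How many of all tested genes had this order was not counted, and a link to the markers was not tested. By the mean of a pair, pair 1 was the highest in 15 of 34 members (44.1%, against 35.5% of tested genes) and the lowest in 8. Inner cell mass and epiblast markers (3 of 4) summed to 375 to 405 CPM in controls and 339 to 391 CPM with BHB, mostly POU5F1. NANOG, an epiblast factor in that sum, was at 72.4, 60.7 and 73.4 CPM in the controls and, under BHB, 30.7, 33.4 and 51.2 CPM, with groups that did not overlap (log2 fold change within pairs -0.87, SE 0.16). Its adjusted p within pairs was 0.183 in edgeR and 0.0093 in DESeq2. POU5F1 and SALL4, the other markers in that sum, had log2 fold changes within pairs of -0.01 and 0.20, with groups that overlapped. The part of these markers in the members' lower values was not tested. Primitive endoderm markers (3 of 4) summed to 139 to 214 CPM in controls and 159 to 215 CPM with BHB. Within that sum GATA4, at 6 to 27 counts per library, was lower with BHB in 3 of 3 pairs, with groups that did not overlap. Its log2 fold change within pairs was -1.01 (SE 0.51, edgeR adjusted p = 0.669). GATA6 was higher with BHB in 3 of 3 pairs, and PDGFRA was lower in 1 of 3. Of other cells, cumulus and granulosa markers (3 of 7) summed to 29.6 to 37.5 and 28.2 to 35.3 CPM, oocyte markers (1 of 6) to 0.401 to 2.65 and 0.943 to 2.77 CPM, sperm markers (2 of 3) to 2.12 to 6.46 and 4.29 to 5.40 CPM, and the blood and immune marker found (CD68, 1 of 3) to 1.33 to 2.27 and 2.42 to 2.77 CPM.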

How the data were processed

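Day 7 blastocyst pools gave 6 libraries from polyadenylated RNA, prepared with a stranded kit per the labels' protocols. The authors deposited raw counts per gene. STAR, featureCounts and DESeq2 are named in the submitters' processing notes. Their versions, the genome build, the strand setting and the treatment of multiply mapping reads are not given here, so genes with similar copies elsewhere are uncertain. The smallest gene total was 38 counts. A second table deposited by the authors holds a mean count (signal), a log2 fold change of control over BHB with its error, a test statistic (score), and p-values before and after adjustment.

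Groups follow the treatment label, and replicate numbers the order of deposit. Counts were scaled by TMM, and filterByExpr left 12732 of 12826 genes. BHB was tested against control over all of them with edgeR 4.0.16 (quasi-likelihood F test, no covariate, adjusted p under 0.05; R 4.3.3), with DESeq2 1.42.0, limma 3.58.1, other scalings (RLE, total counts alone), no filter or a stricter one, the pair as a block and each library left out as alternatives. SE is the log2 fold change over the root of F, and intervals use its degrees of freedom at 95%. Within-pair log2 differences use CPM with a prior count of 2, and ratios use counts plus 0.5. Scripts were tested on simulated data.

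Pairs come from a refit, not from the labels. DESeq2's likelihood ratio test of pair and treatment matched the deposited p-values of 99.98% of genes to 1e-06 under the pairing used and those of at most 0.398% under the other 5. Deviations from group means correlated over genes at 0.46, 0.32 and 0.33 in the 3 pairs.

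The members and the gene lists were chosen with earlier results of these data known. Values in each library are given for members with an unadjusted p under 0.05 or groups that do not overlap, for those called between pairs and for a fixed set of central enzymes; of the pathway list, the 3 genes with the smallest p in each direction are named, except 1 that is not reported here. The 34 symbols are protein-coding genes of the RefSeq table of ARS-UCD2.0, which was used for names alone. No sequences were used here.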

Additional observations from a re-analysis of the deposited data

How the results depend on the processing

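No member was called between BHB and control under any alternative. Over all genes edgeR without pairing called 0, DESeq2's Wald test 6 and DESeq2 with the replicate block 33; edgeR with the replicate block called 0, so the block changed no member's call. Leaving out 1 library at a time gave 0 to 1 genes called (1 without BHB library 2), a median of members from -0.17 to -0.023, and 20 to 27 negative members; these fits keep the partner of the library left out. With a pair left out, chosen after seeing the data, the replicate block called 4, 16 and 4 genes in edgeR and 9, 10 and 14 in DESeq2 (pairs 1, 2 and 3). Under total counts alone, added likewise, members lower without overlap numbered 2. Members called between pairs were 1 in edgeR (524 genes), 0 under total counts alone (376), 4 in DESeq2's likelihood ratio test (667), 0 without pair 1 (63), 2 without pair 2 (737; 5.88% of members, 5.79% of genes) and 1, MPC1, without pair 3 (514).

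Total counts alone turned the log2 fold change positive in MPC1 (0.027), PDHB (0.0019), IDH3A (0.056), OGDH (0.042), SUCLG1 (0.039), PC (0.047) and GOT2 (0.067), and limma did so in GOT2 (0.00086). Leaving out 1 library turned the direction in 16 members, with ranges of -0.19 to 0.21 in MPC1, -0.30 to 0.023 in PDHA1, -0.24 to 0.13 in DLAT, -0.32 to 0.068 in PDK1, -0.0092 to 0.15 in PDP2, -0.25 to 0.022 in CS, -0.10 to 0.073 in IDH3A, -0.23 to 0.11 in IDH3B, -0.33 to 0.0056 in IDH3G, -0.26 to 0.15 in OGDH, -0.15 to 0.078 in SUCLG1, -0.030 to 0.24 in SUCLA2, -0.25 to 0.12 in PC, -0.11 to 0.44 in GLUD1, -0.10 to 0.085 in GOT2 and -0.10 to 0.29 in GPT2. It moved others over 1.5 times without turning them: DLD -0.38 to -0.096, PDHX -0.21 to -0.045, PDK2 0.13 to 0.54, PDP1 0.085 to 0.24, DLST -0.16 to -0.00065 and MDH1 -0.16 to -0.053, beside ACO1, IDH2, FH, ME2 and PCK2. Of the ratios it turned IDH1 over IDH2 (-0.12 to 0.35), PDHA1 over PDHB (-0.23 to 0.072), MPC1 over MPC2 (-0.022 to 0.33) and IDH3B over IDH3A (-0.16 to 0.12). The causes were not tested. Depth limits PDK2 most, at 32 to 61 counts per library.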

Other observations

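The genes that bring ketone bodies and acetate to the cycle were measured in the same libraries, and none passed edgeR's test. They are named here after their values were seen. OXCT1, which activates acetoacetate with succinyl-CoA, was at 80.2 ± 28.1 CPM in the controls and, under BHB, 68.5 ± 17.9 CPM (SD, n = 3 each), with a log2 fold change of -0.23 (SE 0.26). OXCT1 was lower with BHB in 3 of 3 pairs (-0.34, -0.25 and -0.03 on the log2 scale). It differed between pairs (101, 61.9 and 60.4 CPM in pairs 1 to 3, edgeR adjusted p = 0.0326), with pair 1 the highest as in ACO1. It was the only 1 of the 41 tested pathway genes called between pairs (2.44%, against 4.12% of all tested genes). ACAT1, which splits acetoacetyl-CoA, stood at -0.13 (SE 0.13) on the log2 scale and was lower with BHB in 3 of 3 pairs. The acetate genes ACSS1 and ACSS2 stood at 0.17 (SE 0.25) and -0.30 (SE 0.64), lower with BHB in 1 of 3 and 2 of 3 pairs. BDH1, the enzyme that oxidises BHB itself, was near the floor of the measurement, at 1.86 ± 0.255 CPM in the controls and, under BHB, 2.00 ± 1.08 CPM (SD, n = 3 each). The lactate dehydrogenase genes LDHA and LDHB had log2 fold changes of -0.12 (SE 0.18) and -0.02 (SE 0.14).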
